A study of Mus musculus with 12 samples.

Results

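Regulatory T cells (Tregs) from mice that lacked transketolase in Tregs and drank DMαKG were compared with Tregs from wild-type mice that drank vehicle, to see what still differs from normal Tregs once the metabolite is supplied. The comparison uses 6 of the 12 libraries of the series, 3 against 3, chosen by the sample labels alone, and all genes with enough reads. The treated group (cKO DMαKG, replicates 1 to 3) had the genotype Foxp3YFP-creTKTfl/fl and drank dimethyl α-ketoglutarate (DMαKG), a cell-permeable ester of α-ketoglutarate. The reference group (WT vehicle, replicates 2 to 4) had the genotype Foxp3YFP-creTKT+/+ and drank vehicle. Both groups therefore carried the Cre recombinase and the yellow fluorescent protein expressed with Foxp3, and they differ in 2 respects at once, the genotype and the drink. All mice were C57BL/6 and 7 weeks old, and their drinking water was supplied from the mothers' pregnancy into adulthood. The cells were sorted as CD4+CD25+YFP+ from spleen and lymph node. The deletion follows Foxp3-driven Cre and is thus meant for Tregs, while the drink was given to the whole animal. Only sorted Tregs were sequenced, so Tkt in other cells was not tested. The other 6 libraries, cKO with vehicle and WT with DMαKG, entered the fit and are given beside results where they show at which step a gene differed.

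Transketolase, encoded by Tkt, moves 2-carbon units between sugar phosphates in the non-oxidative branch of the pentose phosphate pathway, which links ribose and NADPH production to glycolysis. α-Ketoglutarate is an intermediate of the tricarboxylic acid cycle, the amino group acceptor of transaminases, and the co-substrate of dioxygenases that demethylate DNA and histones. Tregs restrain other immune cells through surface receptors such as CTLA-4, through interleukin-2 uptake and through cytokines, and they leave lymphoid organs with the help of chemokine receptors.

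The libraries held summed estimated counts of 1.57e+07 to 1.89e+07, and 12903 of 17955 genes had enough counts to be tested. On the first principal component, which held 31.9% of the variance, the 3 WT vehicle libraries lay at -2.21, -0.50 and -28.9 and the 3 cKO DMαKG libraries at 18.9, 16.3 and 42.1, so the groups did not overlap there. The labels do not give sex, and the Y-linked gene Ddx3y stood at 0.0555 CPM in WT vehicle replicate 3 and at 0.518 and 0.509 CPM in cKO DMαKG replicates 1 and 3, against 109 to 224 CPM in the other 3 libraries compared, so the groups hold unequal numbers of libraries with Ddx3y RNA. cKO DMαKG replicate 3 stood apart: its summed neutrophil markers were 60.7 CPM, against 13.1 to 21.8 CPM in the other 11 libraries, and its B and plasma cell markers 209 CPM, against 95.9 to 135 CPM. The 12 Treg and T cell markers, all detected, summed to 6615 to 6631 CPM in WT vehicle and 8273 to 8900 CPM in cKO DMαKG. Of these sums Ctla4 alone held 583 to 882 and 1965 to 3001 CPM. In cKO DMαKG replicate 3, Foxp3, Il2ra, Cd3e (159 CPM, against 276 to 315), Cd4, Cd5, Thy1 and Lck were below every WT vehicle library. Ctla4, Ikzf2, Tnfrsf18, Cd3d and Cd3g were above every WT vehicle library there. The purity of the sort was not tested. CPM are counts divided by library size, scaled by the trimmed mean of M-values (TMM). The design gives 3 per group without saying whether each library is 1 mouse, so p-values measure the spread among these libraries.

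Tregs of the DMαKG-treated knockout mice differed from normal Tregs in 220 genes, of which 104 were higher and 116 lower. The higher genes included the surface receptors Kit, Il1r2, Tnfrsf4, Tnfrsf18, Ccr8 and Itgae, fibronectin (Fn1), a laminin chain (Lama5) and the glycolytic enzymes Eno2 and Ldhb. The lower genes included Tkt itself, chemokine receptors (Ccr2, Ccr9 and Cxcr6), the transcription factor Nfe2l2, and interferon-inducible genes (Oas2, Usp18, Ifit2 and members of the Slfn and Ifi200 families). Foxp3, Il2ra and Ikzf2, which define the lineage, did not pass. RNA was taken from bulk sorted cells, so fewer cells of a type and less RNA per cell cannot be told apart in any of these differences.

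The 220 genes were 1.71% of those tested by edgeR's quasi-likelihood test with a Benjamini-Hochberg adjusted p below 0.05; higher genes were 0.806% and lower genes 0.899%. Higher genes had a median log2 fold change of 1.22 (0.49 to 3.65) and lower genes of -1.05 (-3.05 to -0.47), and the median over all tested genes was 0.01. The unadjusted p lay under 0.05 for 2838 genes (22%). The libraries of the 2 groups did not overlap for 3598 genes (27.9%), among them all 104 higher and all 116 lower genes. Groups that lie apart are therefore no further support for a call. The 1.71% is the background for the list counts below, and 0 calls in a short list are no result about its members. The lists were chosen with earlier results of these data known. Several share called genes, such as Itgae, Ccr8, Tnfrsf4 and Tnfrsf18, so their shares of calls are neither independent of each other nor of these data. The size of the call set depended on single libraries. It was 2 without WT vehicle replicate 2, 16 without WT vehicle replicate 3, 12 without WT vehicle replicate 4, and 32, 104 and 86 without cKO DMαKG replicates 1, 2 and 3. It was 599 without WT DMαKG replicate 3, 73 without WT DMαKG replicate 1 and 113 without cKO vehicle replicate 3. None of the 220 changed sign in any setting. As their libraries do not overlap, leaving 1 out could hardly turn a sign, so this is no further support. Kit and 5830411N06Rik passed without each of the 12 libraries. The adjusted p of the other 48 genes past the threshold that the naming rule selects went above 0.05 without at least 1 library, most often WT vehicle replicate 2 or 4, to at most 0.147.

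**Figure D1:**
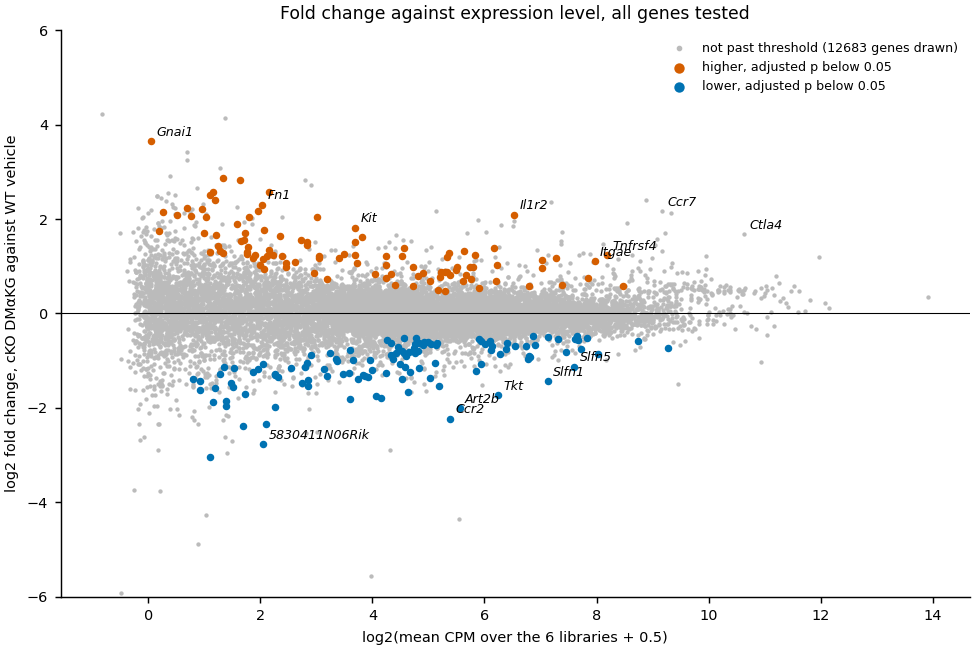
Log2 fold change of cKO DMαKG over WT vehicle (vertical axis) against the log2 of the mean CPM over the 6 libraries plus 0.5 (horizontal axis), 1 point per tested gene, with higher calls in orange and lower calls in blue. The 104 higher and 116 lower genes stand out in colour, Ctla4 and Ccr7 are grey because they did not pass, and 6 genes lie outside the drawn range of 6 log2 units on either side.

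Tkt (gene 21881, chromosome 14, 30549131 to 30574724, GRCm38) checked the genotype labels. WT vehicle libraries had 133, 102 and 111 CPM and cKO DMαKG libraries 37.8, 34.6 and 31.5 CPM; here and below, values run from replicate 2 to 4 and from 1 to 3. The groups were far apart, with a log2 fold change of -1.73 (SE 0.21, edgeR adjusted p = 0.0122; 0.0538 without WT vehicle replicate 2). It stood at 26.2, 37.2 and 41.8 CPM in cKO vehicle and at 110.1, 137 and 194 CPM in WT DMαKG, so the knockout libraries were low with either drink and none was at 0. Of 15 measured genes of the pentose phosphate pathway Tkt was the 1 that passed (6.67%, against 1.71% of all genes tested). The median over the list was 0.02. Taldo1, which encodes transaldolase, the partner enzyme of the non-oxidative branch, had a log2 fold change of 0.02 (SE 0.14).

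Of the 8 genes that distinguish cKO from WT Tregs with vehicle, 6 passed here too, in the same direction; the comparisons share the WT vehicle libraries, so this is a description. Ncf1, a subunit of the phagocyte NADPH oxidase, stood at 21.96, 16.2 and 23.0 CPM in WT vehicle, at 63.0, 52.0 and 53.9 CPM in cKO vehicle and at 32.1, 36.2 and 37.4 CPM in cKO DMαKG. The treated knockout libraries lay between the other 2 groups without touching either. Ncf1 remained above WT (log2 fold change 0.79, SE 0.14, adjusted p = 0.023), and its difference between DMαKG and vehicle in cKO was -0.68 (SE 0.14, unadjusted p = 0.000316, adjusted p = 0.127).

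Phlda3, a p53 target that inhibits AKT signalling, rose from 1.98, 2.78 and 2.15 CPM to 5.31, 5.83 and 4.90 CPM (log2 fold change 1.21). Nrn1, which encodes neuritin, fell from 28.5, 40.6 and 33.5 CPM to 22.5, 16.2 and 19.3 CPM (-0.83), and Cxcr6, a chemokine receptor that overlaps Fyco1 and is uncertain, fell by 1.26. The uncharacterised gene 5830411N06Rik fell from 4.07, 5.72 and 9.23 CPM to 0.712, 1.10 and 0.954 CPM (-2.77, SE 0.39, adjusted p = 0.0122). The 2 that did not pass were Cc2d2a, needed to build primary cilia, and Ncoa7, a coactivator of nuclear receptors. Cc2d2a had a log2 fold change of -1.11 (adjusted p = 0.072) and non-overlapping libraries. Ncoa7 stood at 104, 97.3 and 105 CPM in WT vehicle, 152, 171 and 153 CPM in cKO vehicle and 104, 103 and 115 CPM in cKO DMαKG. The knockout libraries with DMαKG overlapped WT, with a log2 fold change of 0.07 (SE 0.10, adjusted p = 0.697).

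Several surface receptors of Tregs were higher. Kit (chromosome 5, 75574987 to 75656722), the receptor of stem cell factor, stood at 4.23, 5.94 and 6.35 CPM in WT vehicle and at 18.8, 19.7 and 19.8 CPM in cKO DMαKG. The treated libraries agreed within 0.57 CPM (SD) and lay far above WT (log2 fold change 1.82, SE 0.18, adjusted p = 0.00294), and Kit was the only gene with an adjusted p below 0.01 and the only one to pass in every setting tried. In cKO vehicle it stood at 9.37, 9.23 and 12.2 CPM, between these groups. Il1r2 (chromosome 1, 40084692 to 40125230), the decoy receptor that binds interleukin-1 without signalling, stood at 30.7, 41.1 and 32.4 CPM in WT vehicle and at 149, 112 and 184 CPM in cKO DMαKG. The lowest treated library was well above the highest WT library, and the log2 fold change was 2.09 (SE 0.29, adjusted p = 0.0122; 0.0683 without WT vehicle replicate 2). It was the 1 gene called among 30 interleukin receptor genes (3.33%, against 1.71% of all genes tested), whose median was -0.02.

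Tnfrsf4, which encodes the costimulatory receptor OX40, rose from 169, 152 and 199 CPM to 401, 348 and 468 CPM (log2 fold change 1.23, SE 0.19, adjusted p = 0.0144). It overlaps Sdf4 and is uncertain. Its chromosomal neighbour Tnfrsf18, which encodes GITR, rose from 167, 154 and 197 CPM to 278, 239 and 350 CPM (0.74, adjusted p = 0.0437), and its groups did not overlap. Cd40, the receptor of CD40 ligand and best known from B cells and myeloid cells, rose by 2.07 from 0.339, 0.777 and 0.262 CPM to 2.27, 1.67 and 1.91 CPM, while Tnfrsf22, a decoy receptor, fell by 0.62. Of 19 tumour necrosis factor receptor superfamily members 3 were thus higher and 1 lower (21.1%, against 1.71% of all genes tested). The list median was -0.01, and its sign changed in 9 of 24 settings. Itgae, the αE integrin CD103 that binds epithelial E-cadherin, rose from 135, 175 and 165 CPM to 463, 299 and 261 CPM (1.11, adjusted p = 0.0278), and 1 library, replicate 1, was much higher than the other 2. Haspin lies inside Itgae and was called higher as well (1.27), so the 2 cannot be separated without strand.

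The Treg core signature as a whole leaned upward: 22 of 28 members had positive values. The median was 0.34 (0.28 to 0.42 over the settings). Of the 28, 5 passed as higher and 1 as lower (21.4%, against 1.71% of all genes tested). Besides Tnfrsf4, Tnfrsf18 and Itgae, the higher members were Cst7, the protease inhibitor cystatin F, and Plagl1, an imprinted zinc finger gene. Cst7 stood at 49.9, 48.5 and 48.5 CPM in WT vehicle and 95.5, 79.8 and 126 CPM in cKO DMαKG (1.03, SE 0.16). Plagl1 stood at 39.7, 28.2 and 38.1 CPM and 61.7, 73.2 and 75.8 CPM (0.99, SE 0.17). The groups of both genes were apart. The sixth was Nrn1, the lower member given above.

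The best known Treg genes did not pass. Foxp3, the lineage factor, which overlaps Ccdc22 and is uncertain, stood at 366, 347 and 390 CPM in WT vehicle and 433, 545 and 280 CPM in cKO DMαKG. The treated libraries straddled the WT values (log2 fold change 0.19, SE 0.20). Il2ra had a log2 fold change of 0.07 (SE 0.18) and Ikzf2 of 0.09 (SE 0.14). Il10, the suppressive cytokine, stood at 25.3 CPM in WT vehicle and 26.9 CPM in cKO DMαKG on average (0.09, SE 0.56); in cKO vehicle it stood at 4.44, 18.5 and 4.13 CPM.

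Ctla4, the inhibitory receptor, stood at 882, 809 and 583 CPM in WT vehicle and at 1965, 2307 and 3001 CPM in cKO DMαKG. The difference was large but missed the threshold (log2 fold change 1.68, SE 0.41, adjusted p = 0.0598). Its adjusted p was 0.00049 by DESeq2, 0.18 without WT vehicle replicate 4, 0.154 without cKO DMαKG replicate 3 and 0.114 with adjustment for Y-linked RNA. Ccr7, the lymph node homing receptor, stood at 265, 196 and 166 CPM and at 788, 872 and 1148 CPM, and also missed it (2.16, SE 0.47, adjusted p = 0.05). Its adjusted p was 0.00158 by DESeq2, 0.157 without WT vehicle replicate 4 and 0.0985 with adjustment for Y-linked RNA. In WT given DMαKG both genes split by library. Ctla4 stood at 1722, 1722 and 514 CPM there and Ccr7 at 574, 706 and 157 CPM, replicate 3 being the low library each time. Among 17 suppressive molecules 0 passed in either direction (0%, against 1.71% of all genes tested), and the median was 0.20 (0.08 to 0.32 over the settings).

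**Figure D2:**
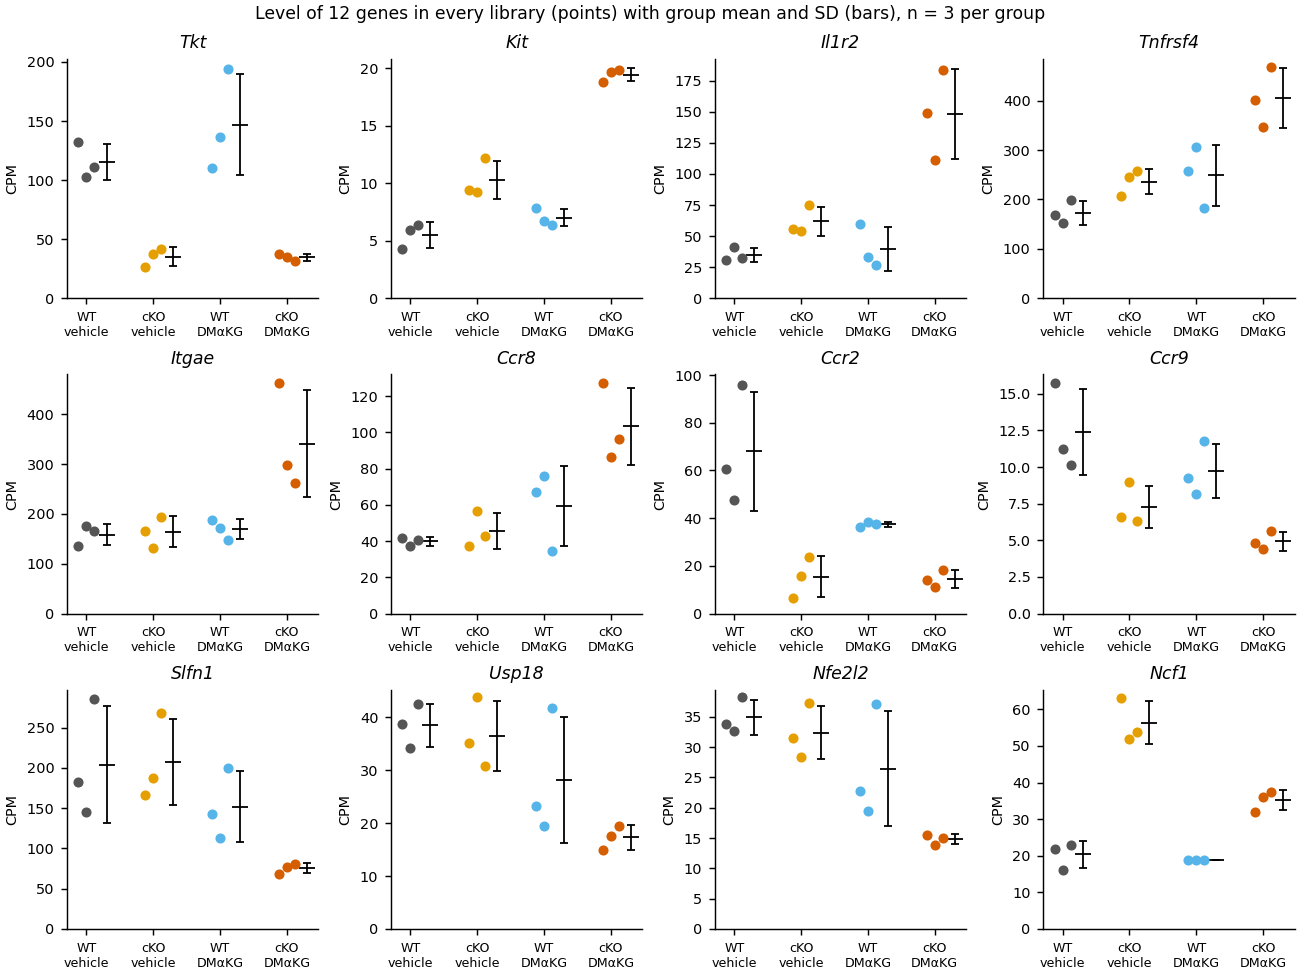
CPM (vertical axes, from 0) of 12 genes in every library of the 4 groups, with points for libraries and bars for group mean and SD (n = 3). Kit, Il1r2, Tnfrsf4, Itgae and Ccr8 are highest in all 3 cKO DMαKG libraries, and Tkt and Ccr2 are low in knockout libraries with either drink. Slfn1, Usp18 and Nfe2l2 are low in cKO DMαKG. Ccr9 is lowest there, and its cKO vehicle libraries lie between those and WT vehicle. Ncf1 in cKO DMαKG lies between WT and cKO vehicle.

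Chemokine receptors and other homing genes moved in opposite directions, with 2 of 29 higher (Itgae and Ccr8) and 3 lower. That is 17.2%, against 1.71% of all genes tested, and the list median was -0.14 (-0.24 without cKO DMαKG replicate 3). Ccr2, the receptor that guides cells to inflamed tissue by CCL2, stood at 60.8, 47.4 and 95.8 CPM in WT vehicle and at 14.1, 11.1 and 18.4 CPM in cKO DMαKG. The highest treated library was below the lowest WT library by a wide margin (log2 fold change -2.23, SE 0.39, adjusted p = 0.0278; 0.0948 without cKO DMαKG replicate 1). In cKO vehicle it stood at 6.72, 15.7 and 23.8 CPM, so DMαKG against vehicle in cKO gave -0.09 (SE 0.39). Ccr2 is also a monocyte gene; the 19 macrophage and monocyte markers summed to 321 to 525 CPM in WT vehicle and 364 to 734 CPM in cKO DMαKG, a sum in which Ctss alone held 214 to 388 CPM. Of the 19, 15 had negative values and 0 passed, and the median was -0.25 (-0.99 without cKO DMαKG replicate 3). Their part in the result was not tested.

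Ccr8, a receptor of tissue Tregs, stood at 41.5, 37.1 and 40.6 CPM in WT vehicle and at 127, 86.2 and 96.5 CPM in cKO DMαKG (log2 fold change 1.38, SE 0.26, adjusted p = 0.0278; 0.0916 without WT vehicle replicate 4). WT vehicle and cKO vehicle overlapped (0.20). Ccr9, the receptor that brings cells to the small intestine, fell from 15.8, 11.3 and 10.2 CPM to 4.79, 4.39 and 5.66 CPM (-1.33, adjusted p = 0.0196; 0.0799 without cKO DMαKG replicate 1). In cKO vehicle Ccr9 stood at 6.61, 8.95 and 6.34 CPM, between these groups. Its log2 fold change was -0.76 in cKO against WT with vehicle and -0.56 in DMαKG against vehicle in cKO. Ccr9 also marks plasmacytoid dendritic cells. Their marker Siglech stood at 21.4, 9.11 and 3.09 CPM in WT vehicle and 1.81, 1.10 and 2.86 CPM in cKO DMαKG. The dendritic cell markers summed to 159 to 336 CPM in WT vehicle and 220 to 336 CPM in cKO DMαKG. Of 13 measured, 6 had positive and 7 negative values, with a median of -0.13 (-0.65 without cKO DMαKG replicate 3). Their part in the result was not tested. Of 30 effector Treg genes 2 were higher (Ccr8 and Itgae) and 2 lower (Ccr2 and Cxcr6). That is 13.3%, against 1.71% of all genes tested, and the list median of -0.05 changed sign in 4 of 24 settings. The same list had a median of -0.45 in cKO against WT with vehicle and of 0.40 in DMαKG against vehicle in cKO, comparisons that share libraries with this one.

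Among the genes with the largest increases that the naming rule selects were 2 components of the extracellular matrix. Fn1, which encodes fibronectin, stood at 1.30, 0.888 and 1.42 CPM in WT vehicle and at 6.35, 7.44 and 4.07 CPM in cKO DMαKG (log2 fold change 2.30, SE 0.36, adjusted p = 0.0162; 0.0695 without WT vehicle replicate 2). Lama5, a laminin chain, stood at 7.396, 4.55 and 7.29 CPM and at 10.04, 26.9 and 17.9 CPM (1.51, adjusted p = 0.0437), with a wide spread among the treated libraries. In cKO against WT with vehicle they had log2 fold changes of 2.02 and 2.04, which did not pass (adjusted p = 0.0988 and 0.0615 by edgeR). Stromal and endothelial markers summed to 174 to 191 CPM in WT vehicle and 180 to 199.996 CPM in cKO DMαKG, of which Pecam1 held 152 to 181 CPM, and Lyve1 was at 0. Col1a2, a collagen gene of that list singled out after its values were seen, stood at 1.47, 1.28 and 2.36 CPM and at 5.05, 4.44 and 2.73 CPM, apart but not past the threshold (1.25, adjusted p = 0.0534 by edgeR). The part of stromal RNA in the result was not tested.

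The naming rule takes called protein-coding genes with non-overlapping libraries and a mean of at least 5 CPM in 1 group. Among these, the other genes with the largest increases were Cep112 (2.57), a centrosomal gene, H1f4 (2.18), a linker histone, and Glt28d2 (2.04). Next came Pls3 (1.76), an actin bundling protein, and Smarcd3 (1.65), a chromatin remodelling subunit that overlaps Chpf2 and is uncertain. They were followed by Dusp14 (1.62), a phosphatase, Ifitm2 (1.56), an interferon-induced membrane protein, Hif3a (1.51), a hypoxia-inducible factor, 6430571L13Rik (1.45) and Fam160a1 (1.38). Ifitm2 stood at 2.88, 3.94 and 2.47 CPM in WT vehicle and at 8.42, 9.18 and 9.73 CPM in cKO DMαKG. Hif3a stood at 2.94, 3.61 and 3.78 CPM and at 10.04, 9.81 and 9.67 CPM. Non-overlapping libraries were a condition for naming these 10 genes.

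Among T helper lists, 0 of 16 Th1 genes passed (median -0.26, from -0.32 to -0.08 over the settings). Of 9 Th2 genes Ccr8 was the 1 called (11.1%), with a median of -0.24, or -0.06 without cKO DMαKG replicate 3. As 1.71% of all genes tested passed, counts in lists this short are no result about their members. Nfe2l2 (chromosome 2, 75675513 to 75704663), which encodes the antioxidant regulator NRF2, stood at 33.9, 32.6 and 38.2 CPM in WT vehicle and at 15.5, 13.8 and 15.1 CPM in cKO DMαKG. The groups were apart (log2 fold change -1.24, SE 0.21, adjusted p = 0.0186; 0.0708 without WT vehicle replicate 4). In cKO vehicle Nfe2l2 stood at 31.6, 28.4 and 37.2 CPM, close to WT. It was the only 1 of 27 antioxidant genes to pass (3.7%, against 1.71% of all genes tested). The list median was 0.12 (0.04 to 0.19 over the settings). Nqo1, a classical target of NRF2, had a log2 fold change of -0.70 (SE 0.58), with at most 1.15 CPM in the 6 libraries.

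Other genes with large decreases under the naming rule were Tmprss13 (-2.34), a membrane protease, Art2b (-2.01), a surface ADP-ribosyltransferase of T cells, and Igip (-1.99). Next came Thap2 (-1.76), a THAP-domain zinc finger gene, and Zfp329 (-1.65), which overlaps Zscan18. They were followed by Cacna1d (-1.53), a calcium channel subunit that overlaps 2 genes, Fam177a (-1.53), which overlaps Gm2436, Adam12 (-1.48), a metalloprotease, and Rtn4rl1 (-1.41), a Nogo receptor homologue. The overlapping ones are uncertain. Art2b stood at 50.1, 111 and 63.0 CPM in WT vehicle and at 15.1, 12.2 and 28.3 CPM in cKO DMαKG. Fam177a stood at 56.8, 40.9 and 62.2 CPM and at 21.6, 20.1 and 13.7 CPM. Non-overlapping libraries were a condition for naming these 9 genes too.

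Several interferon-inducible genes were lower. Of 41 listed genes 35 had negative values, 3 passed as lower and 0 as higher (7.32% called, against 1.71% of all genes tested). The median was -0.42 and stayed negative in every setting. It was smallest in size (-0.28) without the 3 libraries at the low end of the first component. Oas2, an antiviral oligoadenylate synthetase, stood at 29.5, 16.7 and 34.1 CPM in WT vehicle and at 5.76, 8.25 and 9.09 CPM in cKO DMαKG (log2 fold change -1.80, SE 0.37, adjusted p = 0.0404). Usp18, which removes the ubiquitin-like ISG15 and restrains interferon receptors, stood at 38.7, 34.3 and 42.5 CPM and at 14.9, 17.5 and 19.5 CPM (-1.15, SE 0.24, adjusted p = 0.0404). Ifit2, which binds viral RNA, stood at 77.2, 76.3 and 90.7 CPM and at 49.2, 54.1 and 60.7 CPM (-0.57, SE 0.12, adjusted p = 0.0404). The groups were apart for these 3 genes. Ifitm2, an interferon-induced gene outside the list, was higher, as given above. Irf1, an interferon-induced transcription factor, had a log2 fold change of 0.90 and did not pass.

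Slfn1, a Schlafen gene linked to T cell quiescence, stood at 182, 145 and 286 CPM in WT vehicle and at 68.3, 77.3 and 80.8 CPM in cKO DMαKG (log2 fold change -1.44, SE 0.27, adjusted p = 0.0279; 0.0953 without cKO DMαKG replicate 1). In cKO vehicle it stood at 166, 187 and 268 CPM, in the range of WT. The genes that follow were singled out after their values were seen. Slfn5 stood at 245, 234 and 319 CPM and at 126, 118 and 122 CPM (-1.12, SE 0.16, adjusted p = 0.0122), and all 8 measured Slfn genes had negative values, with a median of -0.73. In the Ifi200 cluster on chromosome 1, whose products sense DNA, 4 of 10 measured genes passed as lower and the median was -0.86. That is 40%, against 1.71% of all genes tested. Ifi206 stood at 158, 99.3 and 185 CPM in WT vehicle and at 73.6, 68.6 and 89.9 CPM in cKO DMαKG (-0.93), Ifi208 at 151, 122 and 159.7 CPM and at 65.2, 60.4 and 94.8 CPM (-0.97), and Ifi214 at 20.2, 20.4 and 22.8 CPM and at 9.46, 7.16 and 8.33 CPM (-1.35). Ifi209, the other one, had a log2 fold change of -0.85. These genes are close copies of each other, so the split of reads among them is uncertain. The family medians were negative in all 24 settings, from -0.89 to -0.64 for Slfn and from -1.05 to -0.71 for Ifi200 genes.

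Because members of these families fell together, the bases just before their transcript starts are shown, from RefSeq on GRCm38.p6, with GAAANNGAAA, the letters of the interferon-stimulated response element, in capitals.
Ifi206: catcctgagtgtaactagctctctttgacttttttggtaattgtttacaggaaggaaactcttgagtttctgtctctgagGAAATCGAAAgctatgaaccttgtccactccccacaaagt
Ifi208: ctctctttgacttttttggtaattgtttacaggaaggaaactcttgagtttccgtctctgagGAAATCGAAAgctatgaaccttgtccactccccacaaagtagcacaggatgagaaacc
Ifi214: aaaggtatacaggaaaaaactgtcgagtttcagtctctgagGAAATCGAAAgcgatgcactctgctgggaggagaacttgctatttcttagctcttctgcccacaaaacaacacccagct
Slfn5: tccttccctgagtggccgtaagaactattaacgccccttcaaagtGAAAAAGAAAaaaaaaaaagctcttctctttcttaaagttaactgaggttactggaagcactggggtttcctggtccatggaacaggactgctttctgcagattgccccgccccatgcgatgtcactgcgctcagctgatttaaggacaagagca
The first 3 are 120 bases at chr1:173491319-173491438 (minus strand), chr1:173673545-173673664 (plus) and chr1:173535958-173536077 (minus), and the Slfn5 sequence is 200 bases at chr11:82951902-82952101 (plus). The 3 Ifi200 genes hold the same 10 letters, GAAATCGAAA, starting 40, 58 and 79 bases before the transcript start, and Slfn5 holds GAAAAAGAAA 155 bases before it. The windows of Slfn1, Ifi209 and Ifit2 do not hold these letters. Searched on both strands in windows from 250 bases before to 50 after the start, the motif was in 9 of 96 windows of genes called lower (9.38%), 5 of 130 windows of genes called higher (3.85%) and 428 of 13250 windows of all genes tested (3.23%). The windows matched 85 of 116 lower, 88 of 104 higher and 10373 of 12903 tested genes. Other letters were counted in them too. TGANTCA was in 6.25% of lower, 6.15% of higher and 5.03% of all windows, and CACGTG in 4.17%, 13.8% and 9.58%. Median GC was 55.8% in windows of lower genes and 59.3% in those of higher genes. Median CpG counts were 14 for lower, 16 for higher and 19 for all genes. The part of base content in the motif shares was not tested. Neighbouring genes share sequence and are not independent, and a match is a description of letters, not of a bound site.

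The zinc finger genes named Zfp, also looked at after the values were seen, leaned downward. Of 352, 269 had negative values, and the median was -0.26 (-0.30 to -0.21 over the settings). As lower 11 passed and as higher 3, together 3.98%, against 1.71% of all genes tested. H1 linker histones leaned upward. H1f4 stood at 1.41, 1.44 and 0.839 CPM in WT vehicle and at 6.22, 5.48 and 5.02 CPM in cKO DMαKG, and H1f3 at 0.565, 1.17 and 0.21 CPM and at 4.79, 5.02 and 3.94 CPM (log2 fold changes 2.18 and 2.82). In WT given DMαKG, H1f4 stood at 3.46, 6.41 and 4.75 CPM, above every WT vehicle library and on both sides of the cKO DMαKG values. All 7 measured H1 genes had positive values, 2 passed (28.6%, against 1.71% of all genes tested), and the median was 2.18.

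In glycolysis 2 of 25 genes (8%, against 1.71% of all genes tested) rose and 0 fell, and the median was 0.14. Eno2, the neuronal enolase, stood at 5.14, 4.22 and 4.67 CPM in WT vehicle and at 12.1, 11.8 and 8.78 CPM in cKO DMαKG (log2 fold change 1.22, SE 0.23, adjusted p = 0.0279; 0.0968 without WT vehicle replicate 3). Ldhb, the lactate dehydrogenase subunit that favours lactate use, stood at 58.9, 48.2 and 60.3 CPM and at 86.3, 71.6 and 112 CPM (0.69, SE 0.15, adjusted p = 0.0404). Got1, the cytosolic aspartate transaminase, which interconverts α-ketoglutarate and glutamate, stood at 42.1, 31.1 and 37.2 CPM and at 58.5, 64.9 and 95.1 CPM (0.98, SE 0.20, adjusted p = 0.0394). Got1 was the 1 called of 19 glutamine and glutamate genes (5.26%, against 1.71% of all genes tested). The groups of Eno2, Ldhb and Got1 were apart, as for every called gene.

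Apart from Got1, no listed gene that handles or depends on α-ketoglutarate passed. As 1.71% of all genes tested passed, 0 calls in lists of this size are near the background. Of 34 genes of the tricarboxylic acid cycle and α-ketoglutarate handling 0 passed, with a median of 0.09 (0.04 to 0.14 over the settings). Idh1, the cytosolic enzyme that makes α-ketoglutarate, had a log2 fold change of -0.73 (SE 0.21, adjusted p = 0.0795), and Idh2, its mitochondrial relative, of 0.42 (SE 0.13, adjusted p = 0.102). Of 34 α-ketoglutarate-dependent dioxygenases 0 passed, with 24 negative values and a median of -0.07. Tet2, a DNA demethylase whose loss alters Treg stability, had a log2 fold change of 0.30 (SE 0.15), and Kdm6b, a histone demethylase, of 0.63 (SE 0.21, adjusted p = 0.118). DNA methylation genes had a median of 0.03 (-0.03 to 0.13 over the settings), fatty acid oxidation genes of 0.09 (0.05 to 0.16) and cholesterol synthesis genes of 0.05 (-0.08 to 0.18), and 0 members of these 3 lists passed.

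Some lists leaned 1 way while few or 0 members passed. All 81 ribosomal protein genes had positive values, with a median of 0.49, and 0 passed. The groups did not overlap for 36 of them, while 1603 of 12903 tested genes (12.4%) were apart and higher. Without cKO DMαKG replicate 3, in which Rpl3 stood at 3963 CPM against 2616 and 2394 CPM in the other 2 treated libraries, the median was 0.19. It was 0.24 after a correction for length and GC trends. Nuclear genes of oxidative phosphorylation had 71 of 73 positive values and a median of 0.32, and the same changes brought it to 0.15 and 0.11. Genes of mitosis had 37 of 40 positive values and a median of 0.31, which was -0.03 without cKO DMαKG replicate 1.

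Immediate-early genes, which respond within minutes to signals and to handling of cells, had a median of 0.85, with 27 of 33 positive values. The single member called (3.03%, against 1.71% of all genes tested) was Nr4a3, a nuclear receptor induced through the T cell receptor. It stood at 106, 66.3 and 70.3 CPM in WT vehicle and at 145, 177 and 212 CPM in cKO DMαKG (log2 fold change 1.14, SE 0.25, adjusted p = 0.0449; 0.144 without WT vehicle replicate 4). Fosb, an AP-1 subunit, stood at 477, 233 and 13.5 CPM and at 1119, 978 and 1058 CPM, and did not pass (2.13, SE 1.47). WT vehicle replicate 4 was by far the lowest WT library for Fosb, and without that library the list median was 0.41; the part of cell handling in the result was not tested.

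**Figure D3:**
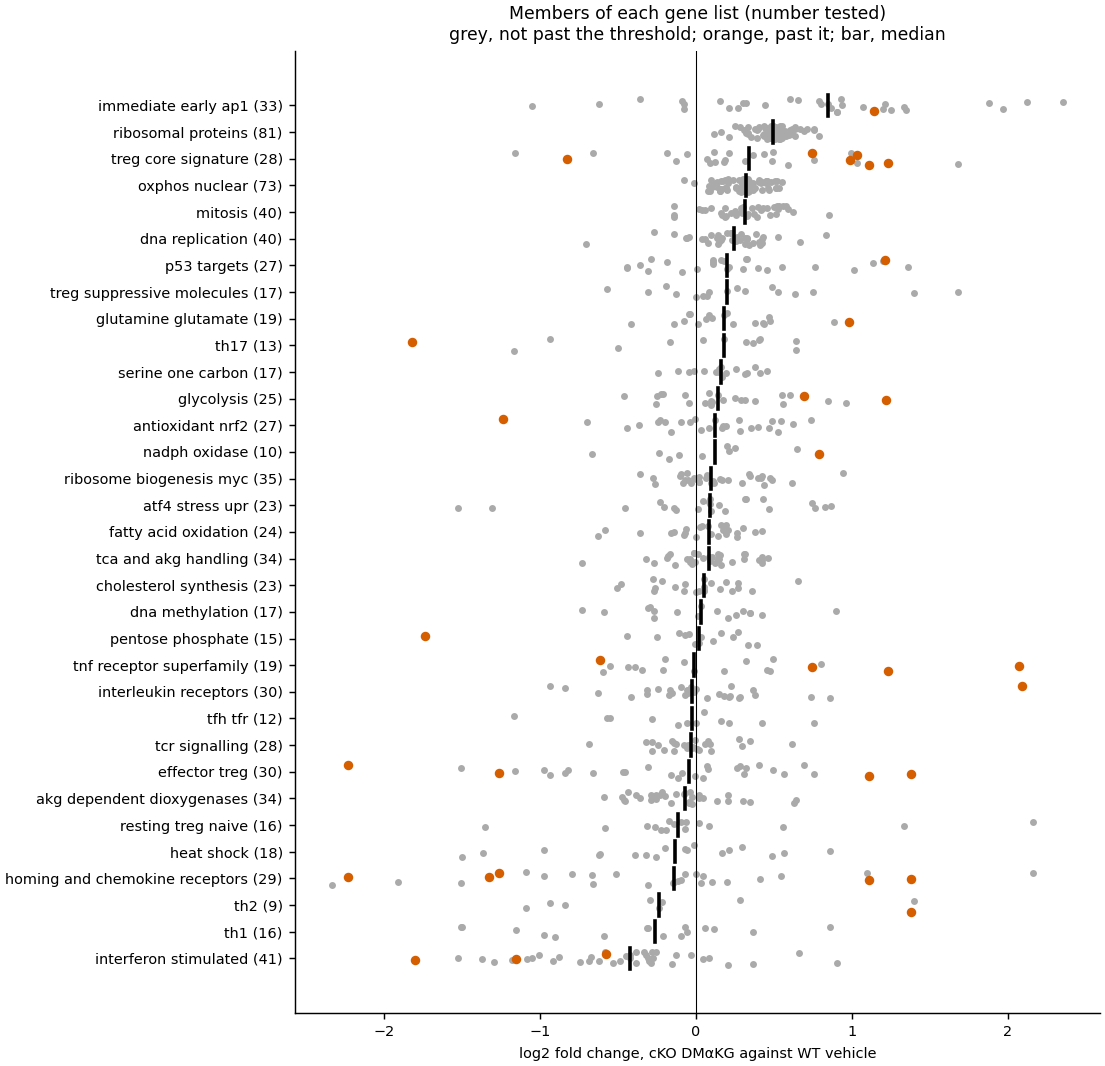
Log2 fold change of cKO DMαKG over WT vehicle (horizontal axis) for every tested member of 33 gene lists (vertical axis, number tested in brackets), with members past the threshold in orange and the list median as a black bar. The immediate-early list lies furthest to the right (median 0.85), the interferon-stimulated list furthest to the left (-0.42), and most called members belong to the Treg, receptor and interferon lists.

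Of the marker lists of other cell types, the erythroid and platelet sum alone did not overlap between the groups, and cKO DMαKG replicate 3 was set apart by neutrophil and plasma cell genes. In that library the neutrophil gene S100a8 stood at 11.6 CPM, against at most 0.315 CPM in the other 5 libraries compared, and Jchain, a plasma cell gene, at 29.8 CPM against at most 2.94 CPM. The 9 measured erythroid and platelet markers had a median of -1.21 and 0 passed, and their 14 members in the table summed to 17.2 to 30.8 CPM in WT vehicle and 5.89 to 16.9 CPM in cKO DMαKG, with Pf4 at 0 throughout. Cd22, an inhibitory receptor known from B cells, was called higher, from 10.2, 15.5 and 7.71 CPM to 21.8, 27.8 and 27.9 CPM (log2 fold change 1.21). Of 16 measured B and plasma cell markers, Cd22 among them, 13 had positive values and 1 passed (6.25%, against 1.71% of all genes tested). The median was 0.46, or -0.21 without cKO DMαKG replicate 3. The part of B cell RNA in the result was not tested.

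The difference from normal Tregs is the sum of 2 steps on the log2 scale, cKO against WT with vehicle and DMαKG against vehicle in cKO. The first step alone called 8 genes (0.062%), 3 higher (0.0233%) and 5 lower (0.0388%), the second 0 (0%; 2229 at an unadjusted p under 0.05), and cKO against WT with DMαKG called 24 (0.186%), 21 higher (0.163%) and 3 lower. All of these share libraries with the comparison described here, and 0 calls in the second step does not show that DMαKG had no effect. For Tkt, Fn1, Ccr2 and Eno2, by value, the first step was close to the whole difference. Ccr2, for example, had -2.14 in the first step and -0.09 in the second. For Slfn1, Usp18, Nfe2l2, Thap2, Fam177a, Itgae and Ccr8 the second was, as for Slfn1 with 0.02 and -1.46. Kit had 0.90 and 0.92, Il1r2 0.83 and 1.26, and Tnfrsf4 0.45 and 0.78, so each step held part of the rise. For Ncf1 (1.47 and -0.68), Nrn1 (-1.34 and 0.51) and Lama5 (2.04 and -0.53) the second step had the opposite sign to the first and was smaller. No gene's interaction of genotype and drink passed (0 genes; 470 at an unadjusted p under 0.05).

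**Figure D4:**
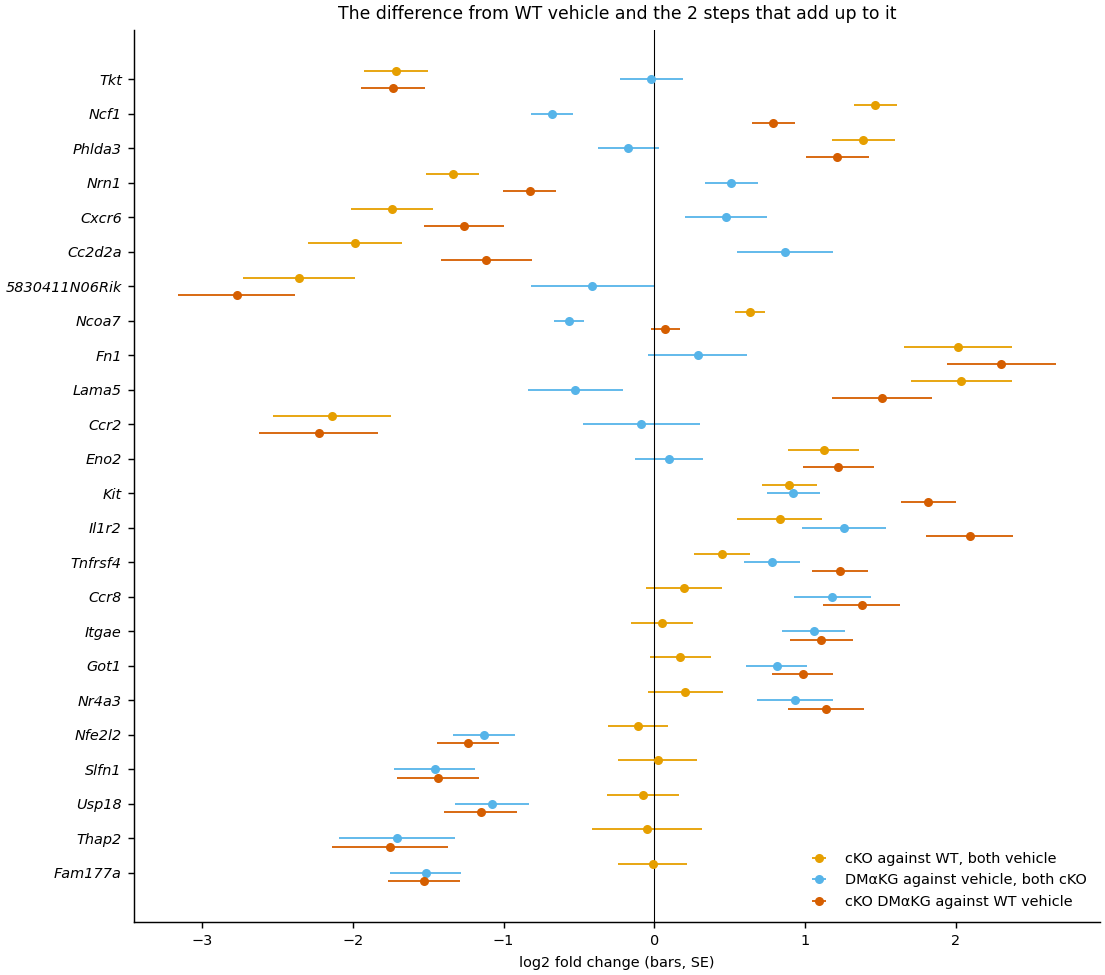
Log2 fold changes with SE (horizontal axis) of 24 genes for cKO against WT with vehicle (amber), DMαKG against vehicle in cKO (blue) and cKO DMαKG against WT vehicle (red). For Tkt the red value (-1.73) lies on the amber one (-1.72), for Kit the steps of 0.90 and 0.92 add up, and for Slfn1 the red value (-1.44) lies on the blue one (-1.46).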

How the data were processed

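RNA was measured in 12 libraries, 3 for each of 4 groups set by the sample labels. Per the labels' protocols, Trizol RNA and the NEBNext Ultra kit were used for Illumina sequencing. The submitters' processing notes name featureCounts 1.5.0-p3, HISAT2 2.0.5, mm10 and DESeq2 1.16.1, with no role or strand setting given. The authors deposited estimated counts per gene, of which 36% of values are not whole. They were rounded to whole numbers for the tests, although whole counts had been planned for. The deposited FPKM and TPM values were not tested. edgeR 4.0.16 (R 4.3.3; filterByExpr, TMM, robust quasi-likelihood fit) was fitted to all 12 libraries with 1 mean per group and 8 residual degrees of freedom. Every adjusted p in the text is from this test, Benjamini-Hochberg adjusted over 12903 genes, unless another tool is named; the threshold was 0.05. The common biological variation was 19.7%, and summed counts per library ran from 1.57e+07 to 1.89e+07. The test was also run on simulated counts (12780 genes, 50 changed per size). It recovered 18% of 1.5-fold, 76% of 2-fold, 94% of 3-fold and 94% of 4-fold changes, with 5 of 146 calls false. These shares describe the simulated counts alone. In the real libraries the number of calls changed when single libraries were left out, and the share of false calls there was not tested.

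In each direction, the text names at most 15 called protein-coding genes, taken by size of change, whose libraries do not overlap and whose mean reaches 5 CPM in 1 group. It also names the genes called with vehicle, up to 4 called members of each list (2 with the smallest p where none passed), 6 Treg genes and up to 3 markers per cell type. Taldo1, Haspin, Tet2, Nqo1, Irf1, Fosb, H1f3, Slfn5, Ifi206, Ifi208, Ifi209, Ifi214, Col1a2, Jchain and Siglech were named after their values were seen. The comparison and the 33 pathway and 10 marker lists were chosen with earlier results of these data known. Gene IDs were matched to RefSeq for 17901 of 17955 genes. Alternatives were other scalings, filters, tools (DESeq2 1.42.0, limma 3.58.1), thresholds, covariates and sets of libraries. Some genes that the naming rule selects are not reported here.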

Additional observations from a re-analysis of the deposited data

How the results depend on the processing

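The 220 calls (104 higher, 116 lower) rest on few libraries. Leaving out 1 library gave 2 to 599 calls, 1 to 225 higher and 1 to 374 lower, the fewest without WT vehicle replicate 2 and the most without WT DMαKG replicate 3. DESeq2's Wald test gave 1021 calls (408 higher, 613 lower) and limma voom with quality weights 1710 (845 and 865), and 218 of the 220 passed in both. Adjusting for Y-linked RNA left 51 genes (30 and 21), all among the 220. An adjusted p below 0.01 left 1 gene (1 higher, 0 lower). At the threshold of 0.05, also asking for a log2 fold change of 1 or more in size left 130 (70 higher, 60 lower). Removing trends on length and GC, chosen after seeing the data, gave 460 calls (221 and 239) and kept 210. The correlation of deviations was 0.003 and 0.058 for the 2 replicate numbers that both groups share, and -0.173 to 0.152 between unlike numbers. On the first component, replicate 4 lay at -28.9 in WT vehicle and -26.8 in cKO vehicle, and WT DMαKG replicate 3 at -25.7. With so few shared numbers these values cannot decide whether a number marks libraries handled together, which was not tested. With a replicate block the count was 1 (1 higher, 0 lower; 2017 at an unadjusted p under 0.05), and the median of the immediate-early list was 0.21, below that of ribosomal proteins (0.49). Other scalings, low-count filters, a fit on the 2 groups alone, a fit without the robust option and one without the 3 libraries at the low end of the first component (the last 2 chosen after seeing the data) gave 205 to 275 calls. None of the 220 changed sign in the 24 settings that gave a fold change. Their libraries do not overlap between the groups, so an unchanged sign is no further support. The cause of the changes in count was not tested.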
